A study of Mus musculus with 5 samples.

Results

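Splicing factor genes were taken as all genes read by a probe set with 1 gene symbol that starts with Srsf, Hnrnp, Snrp, Sf3a, Sf3b, U2af or Prpf. The rule used no measured value. It found 52 of the 8251 genes on the array, with 71 of its 12488 probe sets, and the probe set of highest mean signal stood for each gene. Of the 52, 51 had a signal above the floor on at least 1 array and 49 on all 5. The floor, 130.4, is the median of all gene probe set signals, and a lower value was set to it. The exception was Prpf39, whose signals lay between 2.84 and 41.2.

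The arrays held RNA of 5 thymocyte populations sorted from male C57BL6 mice of 5 weeks, with thymuses of 10 mice used. Whether the mice were pooled is not stated, no other genotype or treatment is given, and each population had 1 array. DN1 was gated as lineage negative, CD24 positive, CD25 negative and CD44 high, and DN2 as the same but CD25 positive. DN3 was lineage negative, CD24 positive, CD25 positive and CD44 low, and the pre-double positive population (preDP) differed from it in lacking CD25. All 4 came from blast enriched thymocytes, whereas double positive (DP) cells were sorted from total thymocytes by CD4 and CD8, so stage and source cannot be told apart for DP.

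Since a population had a single array, nothing could be tested, and every fold below compares 2 arrays without replicates. Genes were counted as higher or lower at 2-fold or more, among those above the floor on either array. Where a gene had a second probe set above the floor, its log2 ratio was set against that of the first as a guide to measurement error. The SD of this difference was between 0.43 (preDP with DN3) and 0.59 (DP with preDP). Of the 51 splicing factor genes, 33 to 47 had a ratio smaller than 1 such SD, depending on the comparison. It was 33 both in DN2 with DN1 and in DP with preDP. This spread leaves out error shared by an array and variation between sorts. In RNA from whole sorted populations, fewer cells with a transcript and less transcript per cell cannot be told apart. The gate genes followed their labels only in part. Il2ra, which encodes CD25, was above the floor in DN2 and DN3 alone, Cd8a was highest in DP at 20020, and Cd44 was under the floor on every array. In DN1, 10 of 12 myeloid, 7 of 7 dendritic and 7 of 7 B-lineage markers were above the floor, against 1 to 5, 3 to 6 and 2 to 3 on the other arrays. The summed signal of the myeloid markers was 120728 in DN1 and between 531 and 2549 elsewhere, that of the dendritic markers 128246 against 822 to 3053, and that of the B-lineage markers 59200 against 4147 to 10006. The part of these cells in any value for DN1 was not tested.

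Introns are removed from pre-mRNA by the spliceosome, which is built on each intron from small nuclear ribonucleoproteins (snRNPs). Snrp genes encode proteins of these particles, among them the ring of Sm proteins that holds the small nuclear RNAs. The U1 snRNP binds the 5' splice site, the U2af heterodimer binds the 3' splice site, and the U2 snRNP with its Sf3a and Sf3b subcomplexes binds the branch point. Prpf proteins serve in the U4/U6 and U5 snRNPs and in the Prp19 complex that accompanies activation. SR proteins, encoded by Srsf genes, mostly favour exon inclusion, and heterogeneous nuclear ribonucleoproteins (Hnrnp genes) coat nascent RNA and often oppose inclusion. In T cells such regulators are known for the splicing of CD45.

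Over the 5 populations the shared shape was low in DN1, higher through DN2 and DN3, highest in preDP and lower in DP. A smaller set went the other way at the last step, with Srsf5, Prpf4b and Sf3b1 highest in DP. Of the 51 genes above the floor, 40 were at least 1.5-fold apart between their highest and lowest array and 19 at least 2-fold. Over all genes these counts were 4196 and 2511 of 5438. The median range was 1.83-fold, against 1.93-fold over all genes. Among the 40, 25 were highest in preDP, 6 in DP, 5 in DN2, 4 in DN3 and none in DN1. Of all genes so far apart, 21.8% were highest in preDP, 32.2% in DP, 12.8% in DN2, 11.9% in DN3 and 21.2% in DN1. The lowest array was DN1 for 28 of the 40, DP for 9, DN3 for 2 and DN2 for 1, while DN1 was lowest for 33.4% of all such genes and DP for 25.0%. Without the DN1 array, 17 of 28 were highest in preDP (23.8% of all genes) and 18 were lowest in DP (38.7%). Scaled to an equal median, 47 of 51 were lowest in DN1 and 1 in DP, beside 54.3% and 15.2% of all such genes. The order of these 2 arrays thus rests on the scaling.

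**Figure D1:**
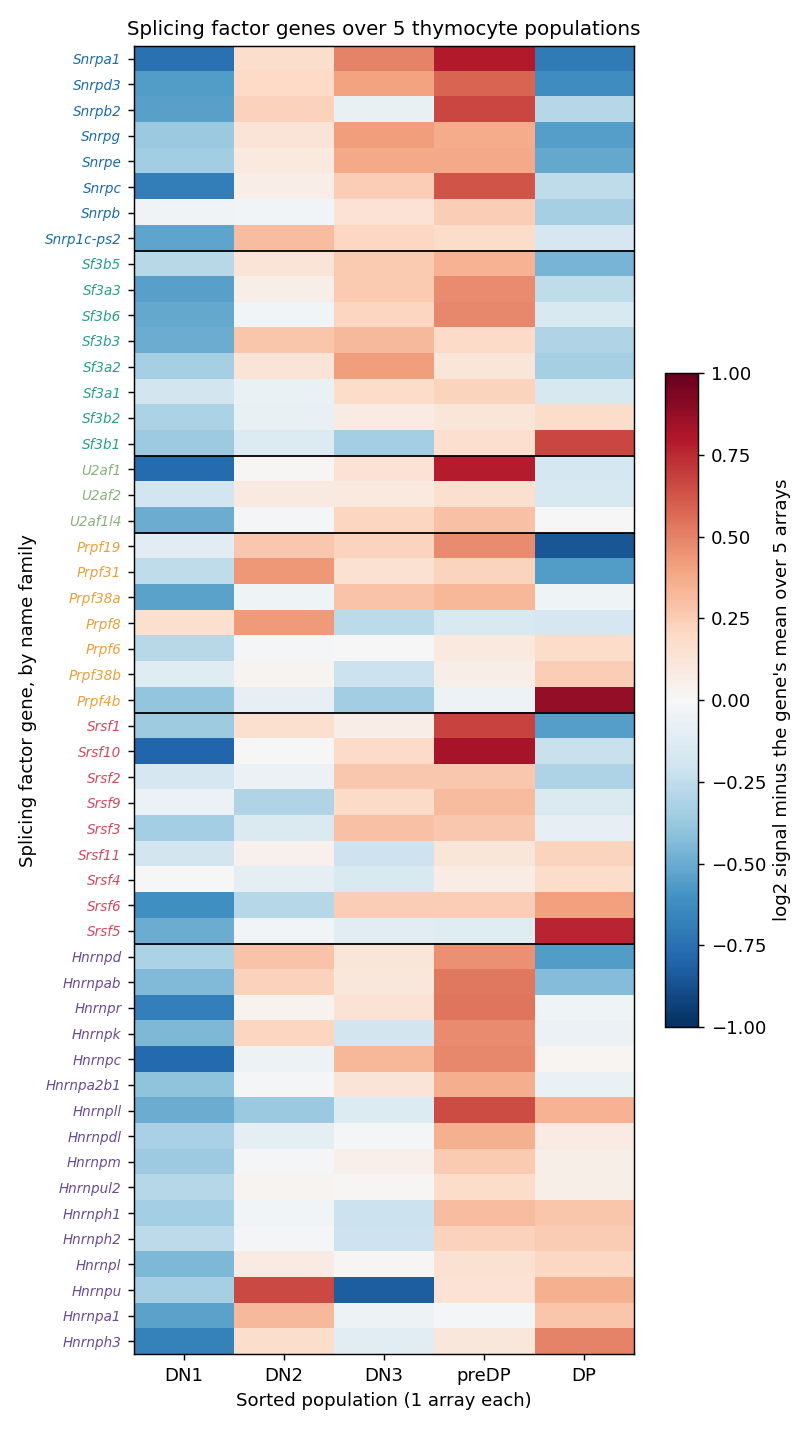
Signal of the 51 splicing factor genes above the floor (rows, grouped and coloured by name family, ordered within a family by the ratio of DP to preDP) in the 5 populations (columns, 1 array each). Colour is log2 signal minus the mean of that gene over the 5 arrays; 25 of the 40 genes at least 1.5-fold apart are highest in preDP, and Srsf5, Prpf4b and Sf3b1 stand out as high in DP.

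The comparison of DN2 with DN1 covers the first CD25 positive stage. Splicing factor genes were higher in DN2 almost throughout, by small amounts, and 33 of 51 ratios were smaller than 1 SD between probe sets. Of 51 measured, 49 had a ratio above 0 and 2 below, beside 59.0% and 41.0% of all genes. At 1.5-fold or more, 18 were higher and 0 lower, beside 18.5% and 14.7%. None reached 2-fold in either direction, against 4.76% of all genes higher and 8.58% lower. The median log2 ratio was 0.46, against 0.13 over all genes. With arrays scaled to an equal median it was 0.70 against 0.37, and 9 members were at least 2-fold higher, with 10.4% of all genes higher and 6.90% lower. The largest ratios were those of Hnrnpu, which encodes a nuclear scaffold protein, at 1.99-fold, and Snrpa1, which encodes the A' protein of the U2 snRNP, at 1.90-fold. By family the median was 0.76 for Snrp, 0.57 for Hnrnp, 0.48 for U2af, 0.44 for Sf3a and Sf3b, 0.32 for Prpf and 0.23 for Srsf. The exceptions were Srsf9, 3588 in DN1 and 3034 in DN2, and Srsf4, 1030 and 966. The second probe set of Srsf4 was 1.28-fold higher in DN2, and that of Sf3a2 1.48-fold lower, so neither gene has a settled direction here. The list of proliferation genes had a median of 0.85 here, with 6 of 17 at least 2-fold higher, and its part in the members' ratios was not tested.

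From DN2 to DN3 the group was level. The median was 0.07, against 0.00 over all genes, with 29 ratios above 0 (50.3% of all genes) and 22 below (49.7%). At 1.5-fold 0 were higher (7.24%) and 2 lower (10.4%). None was at least 2-fold higher (2.02% of all genes) and 1 was lower (3.95%). That gene was Hnrnpu, at 444, 884, 316, 619 and 714 in DN1, DN2, DN3, preDP and DP, lowest in DN3 and 2.80-fold lower there than in DN2. Its other probe set was under the floor on every array, so nothing checks this value, and with the mean over both the log2 ratio was -0.74. Prpf8, which encodes the large U5 protein at the catalytic centre, was 1.61-fold lower, at 3688, 4447, 2758, 2975 and 2940, with DN1 and DN2 above the other populations. Srsf6 and Srsf9, both SR protein genes, were 1.44-fold and 1.41-fold higher in DN3.

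At the passage from DN3 to preDP, past CD25, splicing factor genes were mostly higher again. Of 51, 45 ratios were above 0 and 6 below, beside 51.5% and 48.5% of all genes. At 2-fold there was none in either direction, beside 1.16% higher and 2.43% lower. At 1.5-fold 7 were higher (7.23%) and 0 lower (8.48%). The median was 0.20, against 0.01. All 16 Hnrnp genes had ratios above 0, with a median of 0.35. Hnrnpu was 1.96-fold higher, from its low value in DN3. Hnrnpll, known for promoting the skipping of CD45 exons in T cells, was 1.73-fold higher. It had signals of 921, 1003, 1182, 2042 and 1649, so preDP and DP were both above the 3 earlier populations. Snrpb2, which encodes the B'' protein of the U2 snRNP, was 1.67-fold higher but lay near the floor, between 95.2 and 302. Its second probe set went the other way, from 158 in DN3 to 39.9, under the floor, in preDP. Hnrnpk, U2af1 and Srsf10 were 1.58-fold, 1.56-fold and 1.56-fold higher, and Srsf1 was 1.53-fold. The second probe set of Srsf1 gave 2.55-fold. The 9 spiked hybridisation controls had a mean log2 ratio of -0.39 in this comparison, and the ratio of 3' to 5' signal of Gapdh was 1.39 in preDP against 1.70 to 2.04 on the other arrays. The median of proliferation genes was 0.66. The part of these in the members' ratios was not tested.

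DP was then set against preDP, the step at which CD4 and CD8 are both present. Splicing factor genes were mostly lower in DP, with the lowest family median in the Snrp genes and a few genes higher. Of 51, 37 ratios were below 0 and 14 above, beside 49.6% and 50.4% of all genes, and the median was -0.39 against 0.01. There were 6 genes at least 2-fold lower, namely Snrpa1, Prpf19, Snrpd3, Srsf1, Srsf10 and Hnrnpd. These 6 are 11.8% of those measured, beside 11.7% of all genes, so the count at 2-fold is near the background. At 1.5-fold 16 were lower, beside 22.5% of all genes, and 2 were higher, Prpf4b and Srsf5, beside 23.2%. No gene was at least 2-fold higher, against 11.3% of all genes. With an equal median Hnrnpd and Srsf10 were under 2-fold, at -0.95 and -0.98. With the mean over probe sets, which takes in dim ones, Prpf19 and Srsf1 were at -0.72 and -0.68. The median of proliferation genes was -1.49, with 15 of 17 at least 2-fold lower, and its part in the members' ratios was not tested.

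**Figure D2:**
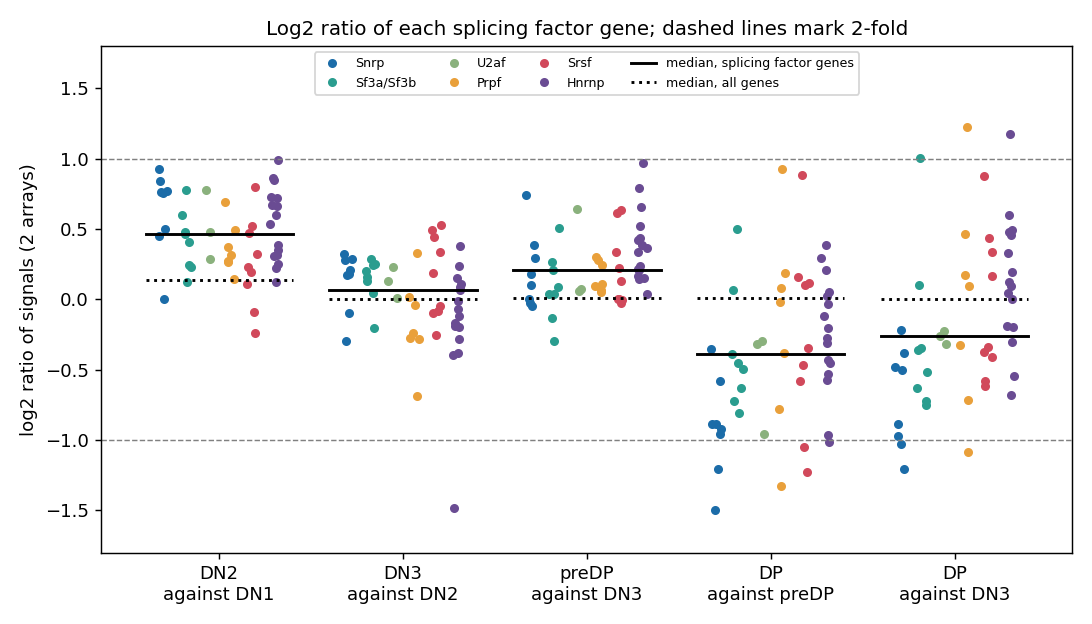
Log2 ratio of signals for each of the 51 splicing factor genes (points, coloured by name family) in 5 comparisons of 2 arrays. Solid bars are the median of these genes, dotted bars the median of all genes measured and dashed lines 2-fold; the medians are 0.46, 0.07, 0.20, -0.39 and -0.26, and every Snrp gene lies below 0 in both comparisons of DP.

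All 8 Snrp genes were lower in DP than in preDP, with a median of -0.91, and this held with quantile normalisation and with an equal median. Snrpa1 gave 563, 1067, 1336, 1638 and 579, in the order DN1, DN2, DN3, preDP and DP, as for every gene here. It was higher on each array up to preDP and 2.83-fold lower in DP, near its level in DN1 in the deposited scaling. Snrpd3, which encodes an Sm ring protein, had 975, 1650, 1903, 2155 and 935, and was 2.30-fold lower in DP. The Sm genes Snrpg and Snrpe were 1.90-fold and 1.85-fold lower. Snrpg had 7638, 10802, 13145, 12738 and 6720, and Snrpe 5988, 8178, 9901, 9933 and 5363. Both were nearly level over DN3 and preDP and, in the deposited scaling, lowest in DP. With an equal median only 1 of 51 splicing factor genes was lowest in DP, beside 15.2% of all genes at least 1.5-fold apart. The order of DP and DN1 thus rests on the scaling. Snrpc, which encodes the U1-C protein, had 1162, 1965, 2223, 2903 and 1568 and was 1.85-fold lower. Snrpb, the gene of the Sm B proteins, had 11312, 11352, 12817, 13744 and 9176. The smallest ratios were its own, 1.5-fold lower, and of Snrp1c-ps2, 1.28-fold lower. Snrp1c-ps2 is annotated as a pseudogene, and its probe set, of the _f_at kind, may also read related genes, as may those of Snrpe and Snrpb2. Snrpb was read by a probe set of the _r_at kind, and its second probe set was under the floor on every array.

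The branch point and 3' splice site genes were lower with 1 clear exception. Of 8 Sf3a and Sf3b genes 6 were lower in DP than in preDP, with a median of -0.47. Sf3b5, which encodes a small subunit of the Sf3b complex, had 2295, 3046, 3335, 3538 and 2019, and was 1.75-fold lower. Sf3a3, a subunit gene of the Sf3a complex, had 1533, 2325, 2679, 3087 and 1873, and was 1.65-fold lower. Sf3b6, whose product contacts the branch point adenosine, had 2553, 3558, 4211, 5069 and 3275 and was 1.55-fold lower. Sf3a2 had 6166, 8496, 10352, 8412 and 6148, highest in DN3. Sf3b3 and Sf3a1 were 1.41-fold and 1.31-fold lower, and Sf3b2 was 1.05-fold higher. The exception was Sf3b1, which encodes the large scaffold of the Sf3b complex that clasps the branch point. It had 811, 952, 827, 1176 and 1660, highest in DP, and was 1.41-fold higher there than in preDP and 2.01-fold higher than in DN3. Its second probe set gave 845, 1014, 1007, 800 and 1706, also highest in DP, 2.13-fold above preDP and 1.69-fold above DN3. Both were highest in DP, but they had opposite signs in preDP with DN3. U2af1, the gene of the small subunit that reads the AG of the 3' splice site, had 1879, 3222, 3526, 5504 and 2834. It stood out in preDP and was 1.94-fold lower in DP. U2af2, the large subunit gene, had 11144, 13564, 13623, 14198 and 11376, a narrow range. U2af1l4, a gene related to U2af1, had 535, 746, 877, 924 and 751, and all 3 U2af genes had ratios below 0.

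Prpf genes were split, with a median of -0.02 that turned to 0.01 with quantile normalisation and 0.05 with an equal median. Prpf19, which encodes the ubiquitin ligase at the heart of the Prp19 complex, had 2167, 2806, 2727, 3232 and 1287. DP was well below the other 4 populations, 2.51-fold below preDP. Prpf31, a U4/U6 snRNP gene, was 1.72-fold lower, at 797, 1287, 1060, 1111 and 646. Prpf4b, which encodes a kinase bound to the spliceosome, had 102, 162, 135, 166 and 315. It was 1.90-fold higher in DP than in preDP, with DN1 under the floor and the other values close to it. Prpf6, a U5 gene, had 1539, 1847, 1870, 1995 and 2110. It and Prpf8 were 1.06-fold and 1.01-fold apart between preDP and DP. Prpf38a was lower in DP, at 1275 in preDP and 981 in DP, and Prpf38b was higher, at 1004 and 1144.

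SR protein genes also went both ways, with 5 of 9 ratios below 0 and a median of -0.35. Srsf1, the gene of the founding SR protein, had 610, 874, 818, 1251 and 533. Its highest value was in preDP and, in the deposited scaling, its lowest in DP, 2.35-fold apart. Its second probe set gave 2.25-fold between preDP and DP. Srsf10 had 201, 349, 397, 617 and 298 and was 2.07-fold lower in DP, or 1.95-fold by its second probe set. Srsf2 had 13392, 14449, 18200, 18221 and 12154, with DN3 and preDP high. It was 1.5-fold lower in DP by this probe set and 2.61-fold by the other. Srsf5 had 2191, 3038, 2862, 2850 and 5252, so that DP stood above all 4 other populations and 1.84-fold above preDP, and this gene has 1 probe set here. Srsf6 had 2374, 2973, 4295, 4301 and 4807, higher from DN3 on. Srsf9 had 3588, 3034, 4264, 4660 and 3374, and Srsf3 was 1.27-fold lower in DP. The second probe set of Srsf3, at 294 in preDP and under the floor in DP, gave at least 2.25-fold lower. Srsf11 and Srsf4 were 1.07-fold and 1.08-fold higher in DP.

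Of 16 Hnrnp genes 11 had a ratio below 0, with a median of -0.24. Hnrnpd, whose product also binds AU-rich elements in mRNA, had 3725, 5654, 5041, 6363 and 3150, and was 2.02-fold lower in DP. Hnrnpab, the gene of a related protein, had 1136, 1808, 1668, 2229 and 1143, and was 1.95-fold lower. In DP both were near or below their value in DN1, in the deposited scaling. Hnrnph3 had 407, 733, 604, 702 and 915, highest in DP, and Hnrnpa1 had 523, 953, 732, 751 and 920. Hnrnpa2b1 had 6454, 8426, 9347, 11016 and 8160, and Hnrnpm 3575, 4551, 4762, 5494 and 4772. By these probe sets both were highest in preDP and lowest in DN1. The second probe set of Hnrnpa2b1 had 289, 395, 289, 351 and 457, highest in DP. Between preDP and DP, Hnrnpa2b1 was 1.35-fold and Hnrnpm 1.15-fold lower and Hnrnpl 1.04-fold higher. Hnrnpr, Hnrnpc and Hnrnpdl were 1.49-fold, 1.37-fold and 1.21-fold lower, while Hnrnph1, Hnrnph2 and Hnrnpul2 were nearly level. The second probe sets of Hnrnpdl and Hnrnpul2 gave 1.63-fold and 1.20-fold lower. That of Hnrnpul2 had 388, 773, 425, 701 and 585, where the first lay between 847 and 1166.

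**Figure D3:**
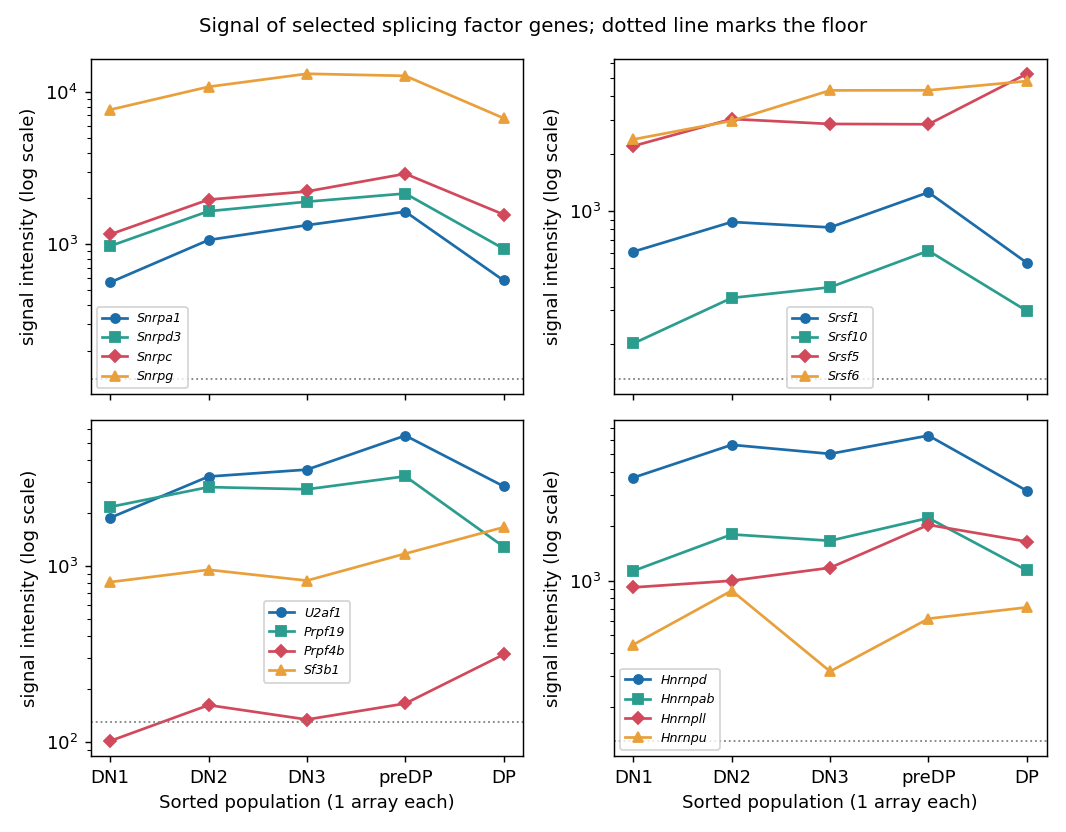
Signal intensity (log scale) of 16 splicing factor genes in the 5 populations, 1 array each, with the floor of 130.4 as a dotted line. Snrpa1, Snrpd3, Srsf1, Srsf10, Prpf19 and Hnrnpd are lower in DP than in preDP, whereas Srsf5, Prpf4b and Sf3b1 are highest in DP; heights of different genes come from different probe sets and are not comparable.

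Probe sets of a gene did not always concur. Among splicing factor genes with 2 probe sets above the floor on both arrays, 6 of 8 pointed the same way in DN2 with DN1. In DN3 with DN2 it was 6 of 10, in preDP with DN3 8 of 10 and in DP with DN3 6 of 9. In DP against preDP, 9 splicing factor genes had 2 probe sets above the floor on both arrays, and 7 of them pointed the same way. Hnrnpa2b1 and Sf3a2 did not. The second probe set of Hnrnpa2b1, of lower signal, was 1.3-fold higher in DP, and that of Sf3a2 1.28-fold higher, so these genes have no settled direction here.

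**Figure D4:**
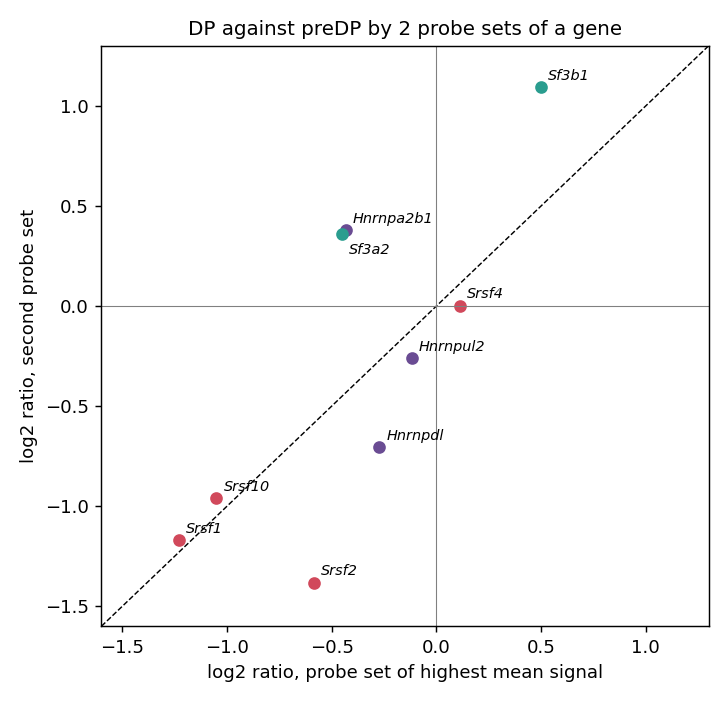
Log2 ratio of DP to preDP by the probe set of highest mean signal (x axis) and by the second probe set (y axis), for the 9 splicing factor genes with both above the floor on both arrays. The dashed line marks equal ratios; Srsf1 and Srsf10 lie near it at the lower left, and Hnrnpa2b1 and Sf3a2 have opposite signs.

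DP was also set against DN3, which leaves preDP out but shares the DP array with the comparison above and the DN3 array with earlier ones. Likewise preDP with DN3 and DP with preDP share the preDP array, so a value off on that array would move them in opposite directions. The median was -0.26, beside -0.00 over all genes, with 21 ratios above 0 (50% of all genes) and 30 below (50%). At 1.5-fold 5 were higher (20.9%) and 11 lower (21.9%). There were 3 genes at least 2-fold lower, Snrpa1 (2.31-fold), Prpf19 (2.12-fold) and Snrpd3 (2.04-fold), and 3 higher, Prpf4b (2.34-fold), Hnrnpu (2.26-fold) and Sf3b1 (2.01-fold). Of all genes 10.8% were lower and 10.4% higher. Hnrnpu was at 0.59 with the mean over probe sets, and Sf3b1 under 2-fold with quantile normalisation, at 0.90. With a constant of 64 added Prpf4b was at 0.93. With an equal median 1 was lower and 3 higher, with 9.06% and 12.8% of all genes. All 8 Snrp genes were again below 0, with a median of -0.69, and all 3 U2af genes, at -0.26. Hnrnp genes were not, with 11 of 16 above 0 (9 with quantile normalisation) and a median of 0.11. Srsf5 was 1.84-fold higher. Srsf1 was 1.53-fold lower by its first probe set and 1.13-fold higher by its second, so it has no settled direction in this comparison.

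Promoter sequences are shown for genes at least 2-fold lower and genes at least 1.5-fold higher in DP than in preDP. The 2 limits differ, so the sets are not matched. Genes such as Hnrnpab and U2af1, 1.95-fold and 1.94-fold lower, are not shown. RefSeq promoter windows of GRCm38.p6 were found for 46 of the 52 genes, and those with 1 window are printed. Prpf19, also at least 2-fold lower in DP, had more than 1 window and is not printed. Each is the 250 bases before the annotated start, 5' to 3'. Capitals mark a CCAAT box (CCAAT), a GC box (GGGCGG) and an Ets motif (CCGGAAG) on either strand, and capitals run together where motifs touch or overlap. The windows of genes at least 2-fold lower in DP lie at chr7:66060086-66060335 on the plus strand, chr10:75517792-75518041 on the plus strand, chr11:88047123-88047372 on the plus strand, chr4:135855821-135856070 on the plus strand and chr5:99978939-99979188 on the minus strand, in the order printed.
Snrpa1: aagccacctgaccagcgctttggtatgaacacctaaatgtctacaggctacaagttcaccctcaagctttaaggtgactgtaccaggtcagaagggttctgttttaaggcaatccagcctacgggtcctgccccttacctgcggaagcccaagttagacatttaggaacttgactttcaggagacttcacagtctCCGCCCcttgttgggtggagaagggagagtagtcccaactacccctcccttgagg
Snrpd3: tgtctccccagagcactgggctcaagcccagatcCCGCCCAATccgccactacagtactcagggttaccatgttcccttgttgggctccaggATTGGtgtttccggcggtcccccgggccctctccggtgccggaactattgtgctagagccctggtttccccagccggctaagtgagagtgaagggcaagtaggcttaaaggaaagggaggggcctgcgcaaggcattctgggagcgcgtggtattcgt
Srsf1: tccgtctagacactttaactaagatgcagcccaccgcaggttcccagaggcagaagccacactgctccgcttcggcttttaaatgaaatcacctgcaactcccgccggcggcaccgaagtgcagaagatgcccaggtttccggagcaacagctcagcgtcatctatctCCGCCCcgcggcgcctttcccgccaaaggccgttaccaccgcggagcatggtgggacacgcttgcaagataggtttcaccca
Srsf10: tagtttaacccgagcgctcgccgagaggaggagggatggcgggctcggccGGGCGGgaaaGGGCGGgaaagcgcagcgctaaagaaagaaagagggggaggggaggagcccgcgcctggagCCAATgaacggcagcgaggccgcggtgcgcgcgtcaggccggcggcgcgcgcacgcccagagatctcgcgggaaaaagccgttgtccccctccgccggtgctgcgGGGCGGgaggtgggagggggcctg
Hnrnpd: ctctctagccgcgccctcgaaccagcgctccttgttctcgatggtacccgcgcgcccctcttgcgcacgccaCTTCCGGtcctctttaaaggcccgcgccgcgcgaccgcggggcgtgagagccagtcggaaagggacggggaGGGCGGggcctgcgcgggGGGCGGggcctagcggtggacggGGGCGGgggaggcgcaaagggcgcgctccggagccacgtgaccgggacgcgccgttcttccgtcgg
The windows of the genes at least 1.5-fold higher in DP lie at chr13:34875279-34875528 on the plus strand and chr12:80945249-80945498 on the plus strand.
Prpf4b: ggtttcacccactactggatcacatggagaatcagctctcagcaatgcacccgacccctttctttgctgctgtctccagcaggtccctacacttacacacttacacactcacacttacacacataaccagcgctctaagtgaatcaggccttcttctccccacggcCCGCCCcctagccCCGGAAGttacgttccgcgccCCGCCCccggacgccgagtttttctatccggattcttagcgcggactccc
Srsf5: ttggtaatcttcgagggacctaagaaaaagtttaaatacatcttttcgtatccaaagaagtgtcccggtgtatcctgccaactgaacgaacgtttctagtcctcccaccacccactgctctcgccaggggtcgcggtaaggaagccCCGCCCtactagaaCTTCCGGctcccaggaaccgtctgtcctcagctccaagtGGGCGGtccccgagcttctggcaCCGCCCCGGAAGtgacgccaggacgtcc

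GC boxes were present in all 7 printed windows, and an Ets motif in those of Hnrnpd, Prpf4b and Srsf5. A CCAAT box was present in those of Snrpd3 and Srsf10. Both the Ets motif and the CCAAT box were also found among the windows of Prpf19, which are not printed. None of the 7 held a TATA box (TATAAA). Over all 58 windows of splicing factor genes, the Ets motif was in 31.0%, against 11.3% of the 8412 windows of genes on the array and 6.91% of all 32851 windows. The NRF1 motif was in 20.7%, against 6.80% and 3.74%, and the GC box in 67.2%, against 52.8% and 32.7%. CCAAT was in 48.3%, against 34.6% and 33.8%, and a CRE core (TGACGT) in 19.0%, against 9.11% and 6.47%. The E2F motif (TTTCCCGC) was in 5 of the 58, or 8.62%, against 1.52% and 0.895%, and among genes 2-fold lower in DP it was in the windows of Srsf1 and Srsf10. The E-box (CACGTG) was in 3.45%, against 8.21% and 6.02%, and TATAAA in 6.90%, against 8.94% and 12.4%. Both strands were searched over 250 bases. Windows of a gene can overlap, motifs can share bases, and a match is a description of letters and not a site.

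Other genes of splicing were read from 3 lists of genes outside the name rule. At 2-fold, 11.3% of all genes were higher in DP than in preDP and 11.7% lower, and the lists are to be read beside these shares. Among 46 measured core spliceosome genes, none was at least 2-fold higher in DP than in preDP and 5 were lower, with a median of -0.16. Among 30 further splicing regulators 2 were higher and 2 lower, at -0.21. Among 14 genes of SR protein kinases, snRNP assembly and the exon junction complex 3 were higher and 1 lower, at -0.37. Lsm2 and Lsm7, genes of the ring that binds U6 RNA, were 2.87-fold and 2.75-fold lower in DP. Lsm7 had 1929, 4529, 5987, 5729 and 2082, high in DN2, DN3 and preDP and low in DN1 and DP. Wdr77, a partner of the methylase that modifies Sm proteins, had 720, 1535, 1725, 1686 and 613 and was 2.75-fold lower.

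The Clk genes, which encode kinases of SR proteins, were higher in DP. Clk3, a nuclear kinase that phosphorylates SR proteins, had 1059, 1181, 1394, 1353 and 7001 and was 5.18-fold higher in DP than in preDP. Clk1 had 2309, 2185, 1771, 1834 and 5610 and was 3.06-fold higher. Clk4 and Clk2, named after their values were seen, were 2.25-fold and 1.88-fold higher. All 4 listed Clk genes had their highest signal in DP. Srpk1, a cytoplasmic SR protein kinase gene also named after its value was seen, was 1.46-fold lower. Rbmx, which encodes an RNA-binding protein of the hnRNP G type, was 3.55-fold higher, at 208, 293, 258, 240 and 851.

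Between DN1 and DN2, 4 listed genes passed 2-fold, each with the higher signal in DN2. They were 2 of 46 core spliceosome genes, 0 of 30 further regulators and 2 of 16 in the third list. Of all genes 4.76% were higher and 8.58% lower, so the count of higher genes is near the background. Lsm7 was 2.35-fold, Strap, an assembly factor gene, 2.22-fold, Phf5a, a subunit gene of the Sf3b complex, 2.15-fold and Wdr77 2.13-fold higher. No gene of the 3 splicing lists was 2-fold apart between DN2 and DN3, beside 2.02% of all genes higher and 3.95% lower. Between DN3 and preDP, where 1.16% of all genes were higher and 2.43% lower, Pnn, an exon junction gene, was 2.17-fold higher in preDP and Rbfox2, a regulator of alternative exons, 3.55-fold lower by a probe set of the _r_at kind.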

How the data were processed

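Biotin-labelled cRNA, from RNA isolated with StrataPrep kits, was read on Affymetrix arrays (per the labels' protocols). The deposited values are linear signal intensities of probe sets. The submitters' processing notes name MAS5 and Expression Console 1.0, without further settings. The mean after trimming 2% at each end was 500.3 to 500.4 on every array, which hides any shift common to all transcripts.

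There were 12488 probe sets, of which 10833 carried a single symbol. For 10817 of these the symbol was updated through the gene identifier (RefSeq, GRCm38.p6). Signals were floored at 130.4 (50th percentile), log2 ratios were taken between 2 arrays, and no test was possible. The splicing factor genes, the lists and the comparisons were chosen with earlier results of these data known. Every member could be named. In full were given members 2-fold apart and the 3 of highest mean signal in a family, with further members added after their values were seen. Of other splicing genes, up to 6 per comparison were named. Alternatives were 2 scalings, 2 floors, a constant of 64, other choices of probe set and a 1.5-fold size. Python 3.11.15, pandas and numpy were used. The counting code was checked on simulated differences larger than 2-fold in genes well above the floor. That check does not measure how reliable the counts given here are. The number of arrays limits the precision.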

Additional observations from a re-analysis of the deposited data

How the results depend on the processing

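With 1 array per population no replicate could be left out. No paired analysis was possible because each population had 1 array and the labels give no replicate numbers. A summary value was taken as moved where a count changed by more than 1.5 times or a median by more than 0.2, and 153 of 176 had not moved. Brackets hold the share of all genes counted in the same way. In DN2 against DN1 the members at least 2-fold higher numbered 0 (4.76%). They numbered 1 with quantile normalisation (5.61%) and 9 with an equal median (10.4%). With the floor at the 35th percentile they numbered 1 (5.96%), and at a size of 1.5-fold 18 (18.5%). The median there was 0.70 with an equal median. In DN3 against DN2 the members lower numbered 1 (3.95%). They numbered 0 with the mean over probe sets (3.35%) or the second probe set (3.97%) and 2 at 1.5-fold (10.4%). In preDP against DN3 the members higher numbered 1 with an equal median, 1 with the second probe set and 7 at 1.5-fold, in place of 0. In DP against preDP 1 was higher with the second probe set (11.2%) and 2 at 1.5-fold (23.2%), in place of 0 (11.3%). At 1.5-fold 16 were lower (22.5%), in place of 6 (11.7%). In DP against DN3 1 was higher with a constant added (9.49%) or the mean over probe sets (8.79%), in place of 3 (10.4%). With the second probe set 1 was higher (9.97%), and at 1.5-fold 5 (20.9%). There 1 was lower with an equal median (9.06%) and 11 at 1.5-fold (21.9%), in place of 3 (10.8%). Among genes at least 1.5-fold apart, members lowest in DN1 numbered 47 with an equal median (54.3%), in place of 28 (33.4%). Those lowest in DP numbered 1 with an equal median (15.2%) and 18 without the DN1 array (38.7%), in place of 9 (25.0%). These profile alternatives were chosen after seeing the data. Of 13 differences of at least 2-fold, 3 stayed at that size under every alternative and none changed sign. Those 3 were Snrpa1 in both comparisons of DP and Snrpd3 in DP against preDP. Each gene has 1 probe set, so other choices of probe set could not change its value. Alternatives in which a gene was under the floor on both arrays were left out. The cause of these shifts was not tested.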

Other observations

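A further 7 probe sets were annotated with a splicing factor symbol together with other symbols and were left out by the rule. Of these, 6 were above the floor on at least 1 array. All 6 were lower in DP than in preDP, by 1.47-fold to 2.52-fold, beside 49.6% of all genes with a ratio below 0. At 2-fold 2 were lower, beside 11.7% of all genes. The median log2 ratio was -0.82. Of the 6, 4 were highest in preDP, beside 21.8% of all genes at least 1.5-fold apart. They are not named, since each is annotated with more than 1 gene.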
